A study of Homo sapiens with 16 samples.

Results

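Expression was followed for 10 human genes whose products make fatty acids and put double bonds into them: SCD, FASN, ACACA, ACLY, ACSS2, ELOVL5, ELOVL6, FADS1, FADS2 and THRSP. They were picked by name, with earlier results of these data known, and no cutoff on a measured value was applied. All 10 were found by symbol among the 58051 gene identifiers of the table. RNA was sequenced from P493-6 cells, human B cells made immortal with a MYC transgene that doxycycline shuts down and with the viral factor EBNA2, which needs oestrogen. At high MYC the cells grew in DMEM with 10% serum and no other additive. At medium MYC, the same medium held 0.1 µg/mL doxycycline and 1 µM β-estradiol, given 24 h earlier. Each culture then received 100 nM IMP1088, which blocks both human N-myristoyltransferases (NMT1 and NMT2), or only its solvent DMSO (control) for 24 h, the time its title gives. Control and inhibitor at both MYC levels make 4 groups, each with 4 libraries. The additives set the MYC level, so effects of MYC, doxycycline and estradiol cannot be told apart. All groups come from 1 cell line, and nothing in the labels says that replicates are separate cultures: p-values then measure only the spread between these samples, which may be technical.

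Most cells take up fatty acids, but growing cells also build them from acetyl-CoA. ATP citrate lyase (ACLY) cuts cytosolic citrate to acetyl-CoA, and ACSS2 makes the same product from acetate. Acetyl-CoA carboxylase (ACACA) turns it into malonyl-CoA, and fatty acid synthase (FASN) joins these units into palmitate. ELOVL6 lengthens palmitate, and stearoyl-CoA desaturase (SCD) adds the first double bond. FADS2, ELOVL5 and FADS1 desaturate and lengthen the polyunsaturated acids. Transcription of many of these genes is known to be driven by the sterol regulatory element binding proteins (SREBF1 and SREBF2), which SCAP escorts and INSIG1 holds back. Myristate, the fatty acid that N-myristoyltransferases attach to proteins, belongs to the same saturated series as palmitate.

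Between 8755296 and 13858534 reads were recovered in 14 of the 16 libraries. Log2 values of replicates correlated across genes with r between 0.985 and 0.991. MYC, the gene behind the labels, stood at 31649 ± 2129.7 normalized counts at high MYC and 959 ± 48.7 at medium MYC in controls (mean ± SD, n = 4), a log2 change of -5.04. Under the inhibitor MYC rose by 0.59 on the log2 scale at high MYC and by 0.53 at medium MYC. The B cell markers MS4A1, CD79A, CD79B, PAX5 and CD22 were all expressed, and the summed normalized counts of these 5 ran from 23284 to 23454 in high MYC controls, 18874 to 19840 under the inhibitor, 37963 to 38720 in medium MYC controls and 33532 to 34737 under the inhibitor. The sums do not stand for each B cell marker. In controls 3 of the 5 were called higher at medium MYC and 2 lower, with log2 changes from -0.12 to 1.28. Of all genes, 38.9% were called higher and 37.3% lower there. Summed counts of 4 hepatocyte markers did not pass 3.50 and those of 4 adipocyte markers did not pass 1.11 in any library. TTR, LEP and FABP4 were at 0 throughout. Sums of 4 myeloid markers ran from 107.5 to 135.6 at high MYC and from 247 to 291 at medium MYC. Only 2 of these markers were tested. At medium MYC, 1 of the 2 was called higher in controls (log2 changes 0.06 and 1.49) and both under the inhibitor (0.47 and 1.70). Sums of 4 T cell markers lay between 62.9 and 71.5 in controls and between 44.1 and 57.7 with inhibitor at high MYC, and between 68.8 and 95.4 against between 43.1 and 54.3 at medium MYC, lower with inhibitor at both levels without overlap, as for most of the enzymes. Of these markers CD3G was called lower at both MYC levels and CD3E at medium MYC. Sums of 4 epithelial markers, of which KRT18 was at 0 throughout, ran from 56.5 to 70.8 in controls and 65.6 to 86.3 with inhibitor at high MYC, and from 60.5 to 78.8 and 84.6 to 111.8 at medium MYC. The epithelial sums hide opposite changes: in controls, 1 of the 2 tested markers was higher at medium MYC (log2 change 5.60) and 1 lower (-2.23). The part of other cells in the results was not tested. In bulk RNA, fewer cells of a kind and less RNA per cell cannot be told apart.

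RefSeq promoter windows on GRCh38.p14, from 250 bases before a start to 50 after it, were at hand for every gene of the group but FASN, 14 windows in all. They are described because these genes, except the undetected THRSP, changed together in the results that follow. Stretches free of annotated exons are printed for 4 enzymes from different steps of the pathway, ACLY (chr17:41919023-41919272, minus strand), ACACA (chr17:37359122-37359346, minus strand), ELOVL6 (chr4:110198677-110198841, minus strand) and SCD (chr10:100346983-100347123, plus strand). Capitals mark the CCAAT box and the GC box GGGCGG on either strand, so that a CCAAT box of the other strand reads ATTGG.
ACLY: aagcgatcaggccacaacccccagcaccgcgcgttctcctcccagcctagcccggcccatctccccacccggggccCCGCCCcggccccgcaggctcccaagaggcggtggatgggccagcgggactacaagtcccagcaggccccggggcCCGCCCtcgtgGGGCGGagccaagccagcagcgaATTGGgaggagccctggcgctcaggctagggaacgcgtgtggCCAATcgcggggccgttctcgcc
ACACA: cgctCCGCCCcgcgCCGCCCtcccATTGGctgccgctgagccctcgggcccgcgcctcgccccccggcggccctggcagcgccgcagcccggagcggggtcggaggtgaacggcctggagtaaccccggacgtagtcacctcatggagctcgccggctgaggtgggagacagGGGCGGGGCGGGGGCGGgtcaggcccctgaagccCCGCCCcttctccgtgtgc
ELOVL6: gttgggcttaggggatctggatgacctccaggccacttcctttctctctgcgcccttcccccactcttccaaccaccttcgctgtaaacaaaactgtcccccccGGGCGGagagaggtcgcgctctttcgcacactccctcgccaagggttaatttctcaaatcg
SCD: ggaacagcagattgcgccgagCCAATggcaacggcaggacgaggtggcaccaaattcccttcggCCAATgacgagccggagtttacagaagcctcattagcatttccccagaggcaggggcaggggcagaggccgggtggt
In the SCD stretch, CCAAT begins 229 and 186 bases before the start. ACLY has it 23 bases before the start and, on the other strand, 65 bases before, with GGGCGG at 174, 99 and 88 bases. ACACA has ATTGG at 226 bases and a run in which GGGCGG begins at 78, 73 and 67 bases, the first pair of them overlapping by 1 base. The ELOVL6 stretch holds 1 GGGCGG, at 122 bases. ACLY and ACACA have further windows at other starts, not printed here, and distances refer to the start of the printed stretch. The ACACA windows differ, and not all of them hold both motifs. On either strand, CCAAT was present in 9 of the 14 windows against 34.6% of all 35116 windows of the table, and GGGCGG in 10 of 14 against 45.0%. By gene, CCAAT was found for 7 of the 9 with a window, THRSP among them (39.7% of all 27305 genes with a window). GGGCGG was found for 7 of these 9 (48.3%). CACGTG, the E-box to which MYC can bind, was found for ELOVL5 alone (8.78% of all genes). TCACNCCAC, the form of the sterol regulatory element searched for, was in none of the 14 windows (1.13% of all windows). Genes with several starts have several windows and so more room for a match, and a match is a description of letters, not of binding. The ACLY windows overlap, so counts by window take the same ACLY sites more than once.

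Expression differed widely within the group. Per kilobase of annotated exon, SCD stood highest in every group, with 3382 ± 77.9 normalized counts per kb in high MYC controls (mean ± SD, n = 4), followed by ACLY at 1550 ± 42.9 and FASN at 1281 ± 87.4. FADS2 (426 ± 13.8), ELOVL5 (315 ± 8.19), ACACA (259 ± 6.97), FADS1 (193 ± 6.36) and ELOVL6 (152 ± 6.40) formed the middle of the order, and ACSS2 was low at 9.08 ± 0.935. No neighbours in that order overlapped between libraries. In medium MYC cells with inhibitor, SCD was still first at 782 ± 6.76, with ACLY at 592 ± 13.3 and FASN at 288 ± 9.22, and FASN overlapped its neighbour ELOVL5 (277 ± 2.45). ACACA stood above FADS1 in both groups at high MYC and below it in both groups at medium MYC.

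THRSP, a regulator of lipogenesis best known from liver and fat, was not detectable at this depth. It had 1 read in high MYC inhibitor replicate 3 and 1 in medium MYC control replicate 2, and 0 normalized counts in the other 14 libraries. A count of 0 allows up to 3 reads, or 2.26 to 3.50 normalized counts in the libraries with recovered reads, which covers counting error only. The other 9 genes passed the filter on low values (a mean of at least 10 normalized counts) and were tested.

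The question set by the series title is how the response to N-myristoyltransferase inhibition depends on the MYC level. At high MYC, 7 of the 9 tested genes fell under the inhibitor and none rose, where 16.3% of all 13765 tested genes were called lower, 10.5% higher and 26.8% in either direction. At medium MYC all 9 fell, where 14.6% of all genes were called lower, 11.7% higher and 26.3% in either direction. The median log2 change of the 9 genes was -0.33 at high MYC and -0.60 at medium MYC, beside -0.02 and -0.01 over all genes tested. The libraries of inhibitor and control did not overlap for 6 of the 9 genes at high MYC (26.7% of all genes) and for 9 of 9 at medium MYC (27.9%). Calls are limma's at a Benjamini-Hochberg adjusted p under 0.05 on log2(normalized count + 1), which slightly understates changes of low genes.

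**Figure D1:**
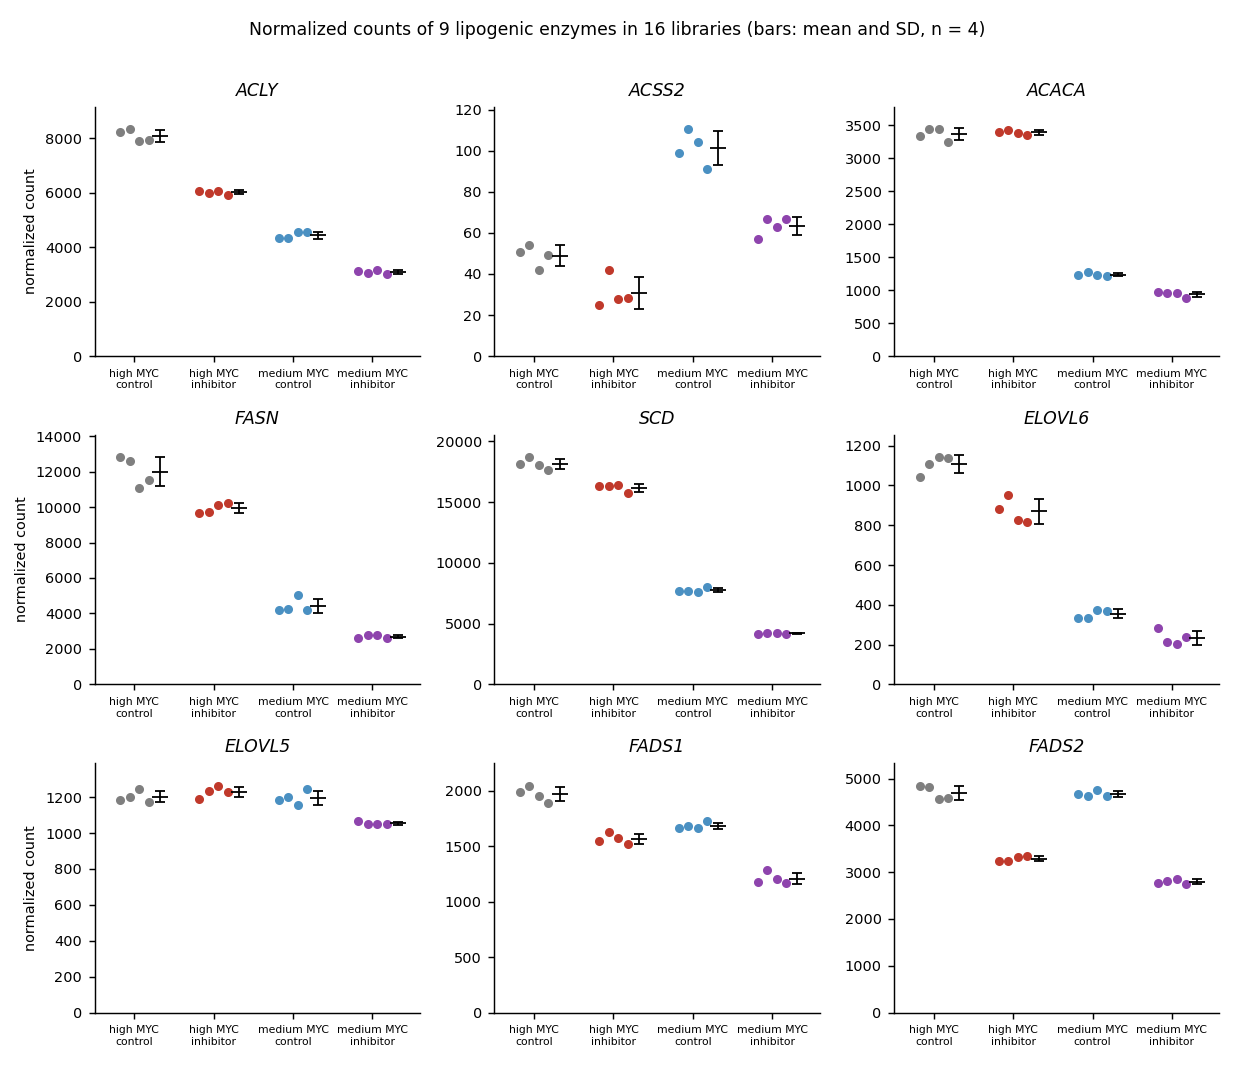
Normalized counts of the 9 tested genes (y axis, from 0) in the 4 groups (x axis). Each point is 1 library in the order of its replicate number, and bars give mean and SD (n = 4). SCD, FASN, ACACA, ACLY and ELOVL6 lie lower at medium than at high MYC, ACSS2 lies higher, and FADS2 falls with the inhibitor from overlapping control groups.

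Both suppliers of acetyl-CoA, ACLY and ACSS2, fell at each MYC level. ACLY stood at 8223, 8325, 7875 and 7914 normalized counts in high MYC controls and at 6075, 5994, 6043 and 5905 with inhibitor. In medium MYC controls it stood at 4343, 4320.0, 4559.5 and 4537, against 3137, 3053, 3152 and 3007 with inhibitor. All 8 libraries with inhibitor thus lay below all controls of their MYC level. ACLY fell by 0.43 on the log2 scale at high MYC (SE 0.028, limma adjusted p = 2.08e-10), to 74.3% of the control, and by 0.52 at medium MYC (adjusted p = 5.06e-12), to 69.5%. The difference between these changes, high minus medium, was 0.10 (0.01 to 0.18, 95% CI, adjusted p = 0.148) and did not pass the test. ACSS2, the acetate route, was a low gene with 50.5, 53.9, 41.9 and 49.2 normalized counts in high MYC controls and 24.7, 42.1, 27.9 and 28.1 with inhibitor. Replicate 2 with inhibitor lay just above control replicate 3, so these groups overlapped. At medium MYC the ACSS2 values were 99.1, 110.4, 104 and 91.1 in controls and 57.1, 66.6, 62.7 and 66.5 with inhibitor, without overlap. ACSS2 fell by 0.68 at high MYC (SE 0.15, adjusted p = 0.00142) and by 0.67 at medium MYC (adjusted p = 0.00146). The interval of the difference, -0.44 to 0.42, is wide, so a different response of ACSS2 at the 2 MYC levels was not detectable at this depth.

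For the committed step and palmitate synthesis, the drop on the log2 scale was larger at medium MYC. ACACA stood at 3337, 3435, 3439 and 3249 normalized counts in high MYC controls and 3399, 3432, 3379 and 3347 with inhibitor, with the groups overlapping. At medium MYC it stood at 1233, 1275, 1223 and 1215 in controls and at 966, 952, 949 and 880.3 with inhibitor, with every treated library lower. The ACACA log2 change at high MYC was 0.01 (-0.06 to 0.08, 95% CI, adjusted p = 0.85). At medium MYC, ACACA fell by 0.40 (adjusted p = 4.20e-09), to 75.7% of control, and the difference of 0.41 passed its own test (SE 0.045, adjusted p = 2.44e-06). FASN gave 12799.9, 12572, 11099.7 and 11519 normalized counts in high MYC controls and 9657, 9708, 10101 and 10231 with inhibitor. In medium MYC cells FASN gave 4181, 4236, 5043 and 4217 in controls, where replicate 3 stood above the other 3, and 2605, 2761, 2776 and 2637 with inhibitor. Neither pair of groups overlapped. FASN fell by 0.27 at high MYC (adjusted p = 0.000397) and by 0.71 at medium MYC (adjusted p = 8.58e-10). Without medium MYC control replicate 3 the latter was -0.64 and the difference between MYC levels moved from 0.44 (adjusted p = 0.00033) to 0.37 (adjusted p = 7.89e-05).

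SCD showed the largest difference between MYC levels among the 9 genes. SCD stood at 18128, 18674, 18067 and 17657 normalized counts in high MYC controls and at 16315, 16297, 16403 and 15709 with inhibitor. At medium MYC the controls held 7686, 7669, 7628 and 8039.7 and the treated libraries 4166, 4243, 4190.4 and 4165. The groups did not overlap at either level, with treated replicate 4 the lowest at high MYC and control replicate 4 the highest at medium MYC. SCD fell by 0.16 on the log2 scale at high MYC (SE 0.025, adjusted p = 3.81e-05), to 89.2% of control, and by 0.89 at medium MYC (adjusted p = 2.70e-16), to 54.1%. The difference was 0.72 (0.65 to 0.80, 95% CI, adjusted p = 1.26e-11). ELOVL6, which supplies the main substrate of SCD, stood at 1042, 1108, 1141 and 1140.0 in high MYC controls and 881, 951, 828 and 818 with inhibitor. At medium MYC it stood at 335, 336, 376 and 371 in controls and 282, 215, 202 and 239 with inhibitor, and all treated libraries lay below the controls of their level. ELOVL6 fell by 0.35 at high MYC (adjusted p = 0.00175) and by 0.60 at medium MYC (adjusted p = 3.97e-06). Its difference of 0.25 (0.02 to 0.48) did not pass the test (adjusted p = 0.177), but without medium MYC inhibitor replicate 1, the highest of its group, it was 0.35 with adjusted p = 0.0182.

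In the polyunsaturated pathway both desaturases fell at each MYC level. FADS2, the first of them, stood at 4848, 4810.0, 4558 and 4576 normalized counts in high MYC controls and 3235, 3247, 3331 and 3350.2 with inhibitor. At medium MYC it stood at 4677, 4631, 4763 and 4622 in controls and 2766, 2816, 2859 and 2739.6 with inhibitor. The control groups overlapped, and both treated groups lay below all 8 controls. FADS2 fell by 0.51 at high MYC (adjusted p = 1.08e-11) and by 0.74 at medium MYC (adjusted p = 1.41e-14), a difference of 0.23 (SE 0.038, adjusted p = 0.000392). FADS1, the later desaturase, gave 1989, 2047, 1958 and 1891 in high MYC controls and 1543, 1626, 1573 and 1522 with inhibitor. The medium MYC controls gave 1665, 1679, 1663 and 1727 and the treated libraries 1178, 1282, 1203 and 1173, again with no overlap at either level. FADS1 fell by 0.33 (adjusted p = 2.91e-07) and 0.48 (adjusted p = 9.73e-10), and the difference of 0.15 (0.04 to 0.25) did not pass (adjusted p = 0.0726). FADS1 and FADS2 share 490 bases of annotated exon on opposite strands. Use of strand in the authors' counting is not given in the sources used here, so reads from that stretch cannot be assigned with certainty. The pseudogenes SCDP1 and FADS2P1 could likewise share reads with SCD and FADS2.

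ELOVL5, the elongase of the polyunsaturated series, passed the test only at medium MYC, where its change was the smallest of the 9. It stood at 1185, 1203, 1246 and 1176 normalized counts in high MYC controls and 1192, 1235, 1264 and 1228 with inhibitor, an overlap. At medium MYC it stood at 1184, 1204, 1154 and 1246 in controls and 1068, 1051, 1049.7 and 1049 with inhibitor. Of all 16 libraries, the 4 of medium MYC with inhibitor were the lowest. The ELOVL5 log2 change was 0.03 at high MYC (-0.04 to 0.10, 95% CI, adjusted p = 0.52) and ELOVL5 fell by 0.18 at medium MYC (adjusted p = 0.000219). The difference was 0.21 (adjusted p = 0.00437 with limma), and DESeq2 on recovered reads of 14 libraries gave adjusted p = 0.0550.

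**Figure D2:**
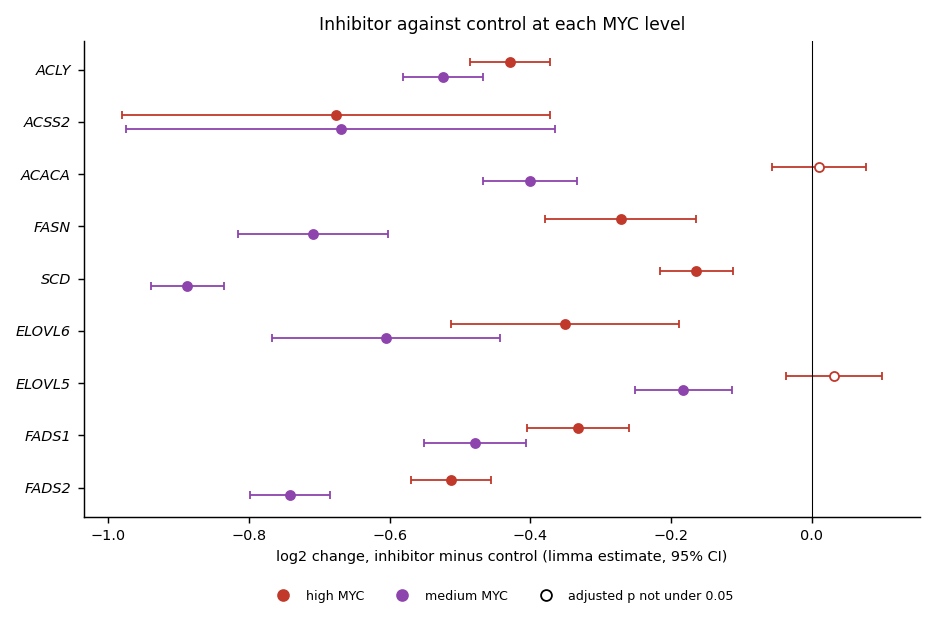
Log2 change of inhibitor against control (x axis, limma estimate with 95% CI) for the 9 tested genes (y axis) at high and medium MYC. Open points have an adjusted p not under 0.05. SCD has the widest gap, -0.16 against -0.89, and ACSS2 has nearly the same estimate at both levels.

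In the test of the difference itself, none of the 9 genes passed with a larger log2 response at high MYC. The log2 response was larger at medium MYC for 5 of them (SCD, FASN, ACACA, FADS2, ELOVL5). Over all genes 3.31% were called in that direction, 5.33% in the other and 8.63% in either. The median difference, high minus medium, was 0.23 for the 9 genes and -0.02 for all genes. The other 4 genes (ACLY, ACSS2, ELOVL6, FADS1) had differences of -0.01 to 0.25, none past the threshold in limma. That does not show that these genes responded alike at the 2 levels.

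The second question is how the genes differ with MYC level itself. In controls, 6 of the 9 genes had lower levels at medium MYC than at high MYC, ACSS2 was higher, and FADS2 and ELOVL5 did not pass the test. Of all genes, 76.2% were called in this comparison, 37.3% lower and 38.9% higher, so the call alone separates these genes little from others. Each library was scaled by 1 size factor, so changes in all comparisons are relative to the bulk of its RNA. Amounts per cell cannot be read from them. The libraries of both MYC levels did not overlap for 7 of the 9 (69.2% of all genes). The median log2 change, medium minus high, was -0.86 for the 9 genes and 0.02 for all. These comparisons use the same control libraries as the inhibitor comparisons, and values are therefore set side by side only.

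The enzymes from citrate to monounsaturated fat were lower at medium MYC. ELOVL6 had the largest change, with 1108 ± 46.7 normalized counts at high MYC and 354 ± 22.3 at medium MYC (mean ± SD, n = 4), or -1.64 on the log2 scale (limma adjusted p = 2.16e-14). FASN was at 11998 ± 818 and 4419 ± 416, a change of -1.44 (adjusted p = 1.36e-16), and without medium MYC control replicate 3 it was -1.51. ACACA was at 3365 ± 90.7 and 1237 ± 26.4, also -1.44 (adjusted p = 4.13e-20). SCD was at 18132 ± 418 and 7756 ± 191, a change of -1.23 (adjusted p = 1.00e-20). ACLY fell less, from 8084 ± 224 to 4440.0 ± 126, a change of -0.86 (adjusted p = 1.97e-17). Of the polyunsaturated pathway, FADS1 changed by -0.23 (adjusted p = 4.58e-06). FADS2 changed by -0.01 (-0.06 to 0.05, 95% CI, adjusted p = 0.819) and ELOVL5 by -0.01 (-0.08 to 0.06, adjusted p = 0.859). ACSS2 went the other way, from 48.9 ± 5.03 to 101 ± 8.18 normalized counts, 2.05-fold higher at medium MYC (log2 change 1.04, SE 0.15, adjusted p = 1.46e-06).

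Under the inhibitor, medium MYC cells had lower levels than high MYC cells for 8 of the 9 genes and a higher level of ACSS2, all without overlap between libraries (72.6% of all genes), where 77.5% of all genes were called and 37.8% were called lower. The median was -0.96 for the 9 genes and 0.02 for all. SCD reached 25.9% of its high MYC level here (-1.95 on the log2 scale), against 42.8% in controls. FASN stood at 27.2%, ACACA at 27.6% and ELOVL6 at 26.9%. FADS2, which did not pass the test in controls, changed by -0.24 on the log2 scale under the inhibitor (adjusted p = 7.49e-08), and ELOVL5 changed by -0.22 (adjusted p = 2.84e-06).

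**Figure D3:**
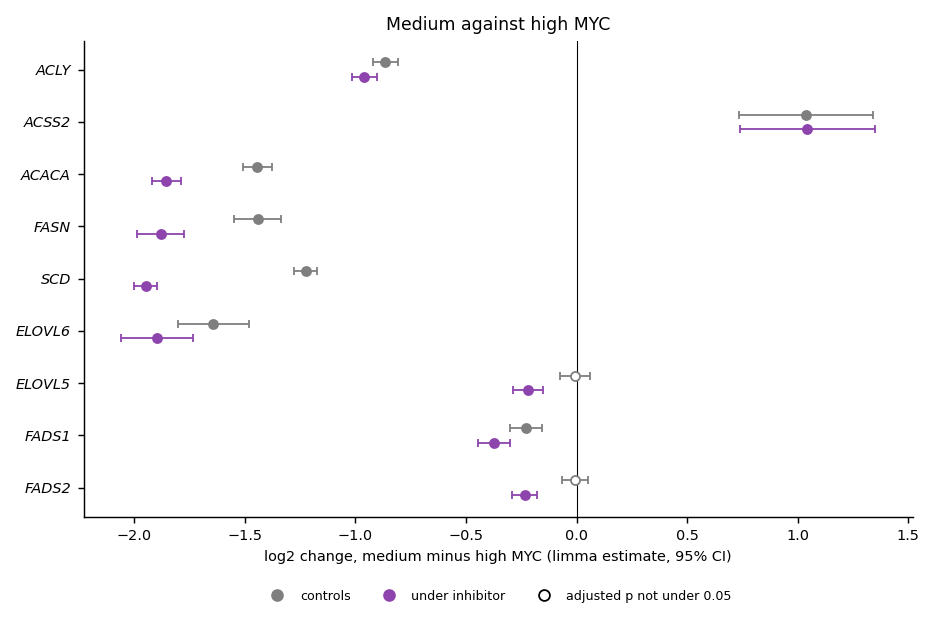
Log2 change of medium against high MYC (x axis, limma estimate with 95% CI) for the 9 tested genes (y axis), in controls and under the inhibitor. Open points have an adjusted p not under 0.05. ACSS2 alone lies to the right of 0, at 1.04 in both, and FADS2 and ELOVL5 lie at -0.01 in controls.

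The 9 genes varied together within a MYC level. With each gene's log2 value taken relative to its own mean at that MYC level, the 36 pairs correlated at r from 0.43 (ACSS2 with ELOVL5) to 0.99 over the 16 libraries, with a median of 0.87 and none below 0. These libraries share the contrast of inhibitor and control, so the correlations describe it. By the same measure, among 10894 genes with a mean of at least 50, the 5 most like SCD included RSU1, PGK1, MSMO1 and FUT11 (r from 0.979 to 0.993). For FASN they included IGFBP2, PALD1 and GPI (0.985 to 0.987), and for FADS2 they were WDR1, CAP1, PDLIM7, TPM4 and CAPZB (0.992 to 0.996).

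Among 15 tested regulators of lipogenesis, 5 fell and 2 rose at high MYC, and 6 fell and 2 rose at medium MYC. Beside them, 16.3% of all genes were called lower and 10.5% higher at high MYC, and 14.6% and 11.7% at medium MYC, so the rises were near the background. SREBF1, whose product drives the fatty acid enzymes, stood at 1298, 1161, 1094 and 1197 normalized counts in high MYC controls and 955, 1004, 1020.2 and 1110.2 with inhibitor, overlapping by 1 library on each side. At medium MYC it stood at 785, 777, 853 and 773 in controls and 537, 564, 528 and 509 with inhibitor, without overlap. SREBF1 fell by 0.22 (limma adjusted p = 0.00429) and by 0.58 (adjusted p = 3.86e-08), a difference of 0.36 that passed its test (adjusted p = 0.00332), and in controls its log2 change with medium MYC was -0.57, or 67.2% of the high MYC level. SREBF2, better known for the cholesterol genes, fell by 0.17 and 0.20. INSIG1, which retains these factors in the endoplasmic reticulum, fell by 0.31 at high MYC and 0.26 at medium MYC, and was higher at medium MYC in controls (log2 change 0.36). SCAP, their escort, had a log2 change of -1.06 with medium MYC in controls, at 533 ± 61.7 against 1109 ± 61.0 normalized counts, which became -1.14 without medium MYC control replicate 3. MID1IP1, a binding partner of acetyl-CoA carboxylase and a relative of THRSP, moved opposite to the enzymes under the inhibitor: it rose by 0.31 at high MYC (adjusted p = 1.19e-06) and by 0.13 at medium MYC (adjusted p = 0.00867). At medium MYC this call was lost with edgeR (adjusted p = 0.0522) and DESeq2 (0.108). With MYC level MID1IP1 moved as most of the enzymes did, with a log2 change of -0.67 in controls (adjusted p = 1.65e-13). RXRA, the partner of the liver X receptors, was very low at high MYC (30.1, 35.9, 25.4 and 32.4 normalized counts in controls) and high at medium MYC (780.2, 799, 866 and 853). RXRA rose by 0.53 with inhibitor at high MYC, where 1 treated library lay within the controls, and fell by 0.37 at medium MYC (adjusted p = 0.0255). Leaving out medium MYC control replicate 3 or 4, or inhibitor replicate 1 or 2, raised that adjusted p to between 0.0598 and 0.0701. The same RXRA call was lost with no mean trend (limma adjusted p = 0.0512) and with the GC correction (0.0580). USF1, an E-box binding factor of the FASN promoter, fell by 0.55 at high MYC and 0.21 at medium MYC (difference -0.34, adjusted p = 0.00383). Of 6 tested genes for AMPK and its kinase STK11, which restrain acetyl-CoA carboxylase, 1 rose and none fell at high MYC, and none passed the test at medium MYC. In controls 5 of the 6 were higher at medium MYC, where 38.9% of all genes were called higher, led by PRKAG1 with a log2 change of 1.48.

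Of 17 genes for acetyl-CoA and NADPH supply, 8 fell and 1 rose at high MYC and 8 fell at medium MYC. Medians were -0.11 at both. Of all genes, 16.3% were called lower and 10.5% higher at high MYC, and 14.6% and 11.7% at medium MYC. The citrate carrier SLC25A1 fell by 0.38 and 0.43, and the NADPH-forming IDH1 by 0.51 and 0.60 at high and medium MYC. The gene that rose at high MYC was ME2 (0.13). In controls IDH1 was higher at medium MYC (log2 change 0.81), as was SLC25A1 (0.24), while ME2 was lower (-1.21). Of 19 other synthesis, elongation and desaturation genes tested, 4 fell at each MYC level and 1 rose at medium MYC, close to the shares of all genes called lower (16.3% and 14.6%). The largest drop was that of CYB5R3, the reductase of the electron chain that serves desaturases, by 0.74 at high MYC (1096 to 654 mean normalized counts) and 0.94 at medium MYC (1025 to 534). HSD17B12, a reductase of the elongation cycle, fell by 0.30 and 0.34. Among the paralogues of the 9 enzymes, SCD5 was low (48.9 ± 9.36 normalized counts in high MYC controls) and gave log2 changes of -0.08 and -0.11 that did not pass the test. ACACB, the mitochondrial carboxylase, gave -0.26 at high MYC (adjusted p = 0.048) and -0.25 at medium MYC (adjusted p = 0.0594), and the first call was lost in most alternative fits. ELOVL1, an elongase of saturated very long chains, gave -0.06 at high MYC (adjusted p = 0.401) and fell by 0.23 at medium MYC (adjusted p = 0.00165). In controls, MCAT of mitochondrial fatty acid synthesis was lower at medium MYC (-1.57) and the cytochrome CYB5A higher (1.07).

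Genes that use or burn fatty acids were counted in the same way. Of 17 genes for activation and esterification, 6 fell and none rose at each MYC level. Of all genes, 16.3% were called lower and 10.5% higher at high MYC, and 14.6% and 11.7% at medium MYC. Genes that fell included ACSL4 (-0.24 and -0.30), LPCAT3 (-0.30 at high MYC) and MBOAT7 (-0.37 at medium MYC). In controls, AGPAT3 was higher (1.22) and DGAT2, which completes triglycerides, lower (-1.29) at medium MYC. Of 18 oxidation genes, 4 fell at high and 5 at medium MYC and none rose, beside 16.3% and 14.6% of all genes called lower, with medians of -0.06 and -0.07, and none passed the test of the difference. ETFB, an electron carrier of this pathway, fell by 0.33 and 0.30. In controls, the regulator PPARA was higher (1.39) and HADH lower (-0.92) at medium MYC. The list most like the 9 enzymes was cholesterol synthesis and uptake, also known as targets of the same factors. Of its 22 tested genes 16 fell at high MYC and 21 at medium MYC, beside 16.3% and 14.6% of all genes called lower. None rose, and the medians were -0.27 and -0.48. Those with the largest log2 changes were TM7SF2 (-0.63) and ACAT2 (-0.50) at high MYC, and MVD (-0.82) and HMGCS1 (-0.77) at medium MYC. On the log2 scale the drop was larger at medium MYC for 13 of the 22, beside 3.31% of all genes called in that direction. The largest differences were those of MSMO1 (0.54) and CYP51A1 (0.52), beside 0.72 for SCD. With MYC level in controls the cholesterol list divided, 8 higher and 7 lower at medium MYC. Of all genes, 38.9% were called higher and 37.3% lower, so these counts were near the background. The median of the list was -0.02, against -0.86 for the 9 enzymes and 0.02 for all genes. In the list, HMGCS1 changed by -1.04 and the lipid carrier STARD4 by 2.43. Whether the lists differ from each other was not tested.

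**Figure D4:**
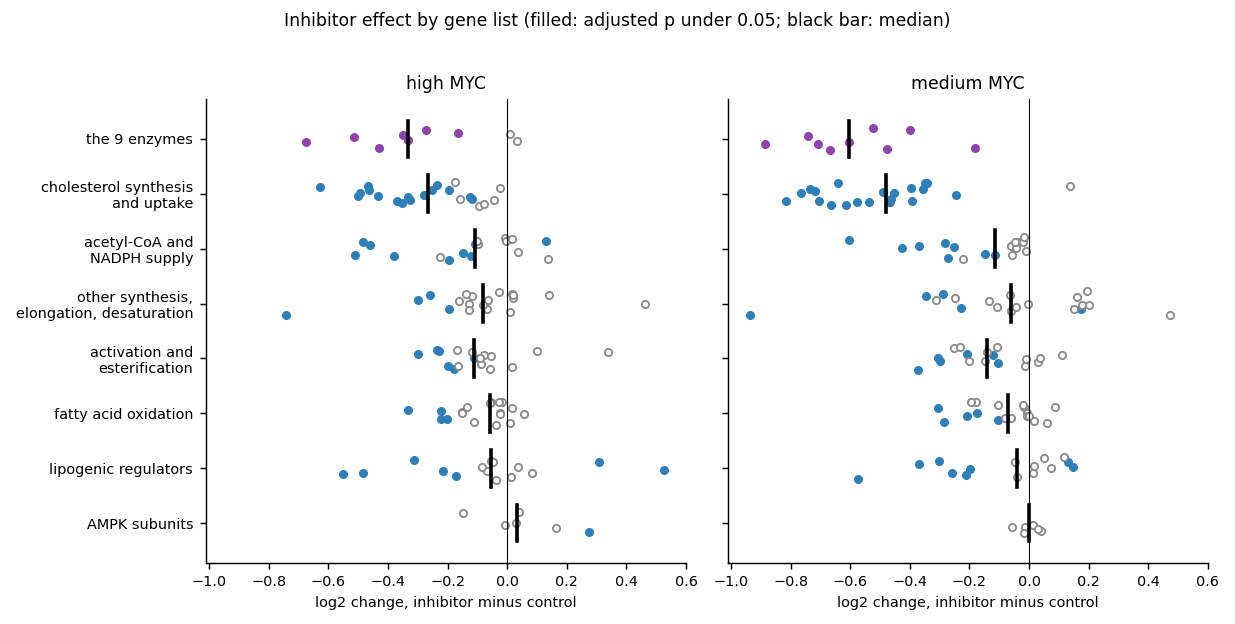
Log2 change of inhibitor against control (x axis) for each tested gene of 8 lists (y axis), at high MYC (left) and medium MYC (right). Filled points passed an adjusted p of 0.05, open grey points did not, black bars are medians, and points are spread vertically only to be seen. The medians of the 9 enzymes are -0.33 and -0.60, those of the cholesterol list -0.27 and -0.48, and those of the other 6 lists lie between -0.14 and 0.03.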

How the data were processed

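RNA-seq of 16 P493-6 libraries was analysed from 1 deposited table of normalized counts, gene reads divided by 1 size factor per library, treated as a signal. The authors deposited this signal; the submitters' processing notes name STAR 2.5.2a, RSEM 1.2.31, DESeq2 1.16.1 and GRCh38, with no role or order. Annotation release and strand use are not given in the sources used here. Low values were whole multiples of 1 read in 14 libraries (100% of values within 0.001), which gave reads and depth; medium MYC inhibitor replicates 2 and 4 were left out of count tests, leaving that group 2 libraries.

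The main test was limma 3.58.1 (R 4.3.3) on log2(value + 1), over 13765 genes with a mean of at least 10, as 1 fit of 4 group means and 16 libraries with a mean trend, two-sided, with Benjamini-Hochberg adjustment over all tested genes. Scripts were tested on simulated data. Symbols matched 56948 identifiers, and exon lengths came from GENCODE 29 on GRCh38. The 10 genes and the lists were chosen with earlier results of these data known. Named beyond them were regulators and paralogues set by name and, per list, the 2 largest rises and falls that passed the test at a mean of 50 or more, not all of which are reported. Some genes, 1 of them a B cell marker left out of the marker sums, are not reported here. Replicate numbers were not taken to pair samples. Alternatives were other scalings, pseudocounts, filters and variance models, replicate blocks, a GC correction, edgeR 4.0.16, DESeq2 1.42.0 and leaving out each library.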

Additional observations from a re-analysis of the deposited data

Results flagged for a closer look

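In 176 sets of 4 libraries (44 genes in 4 groups), 10 held a library far from the other 3, its gap to the nearest divided by the whole range being above Dixon's 95% critical value; chance alone gives about 1 in 20. Among the enzymes, SCD was lowest in high MYC inhibitor replicate 4 (ratio 0.848) and highest in medium MYC control replicate 4 (0.857). FASN was highest in medium MYC control replicate 3 (0.936), and ELOVL5 was highest in medium MYC inhibitor replicate 1 (0.882). The same medium MYC control replicate 3 was the highest for SREBF1 (0.845) and SCAP (0.907) and the lowest for STARD4 (0.875). INSIG1 was highest in high MYC control replicate 2 (0.833), MCAT was highest in high MYC control replicate 1 (0.861), and ELOVL1 was lowest in high MYC inhibitor replicate 4 (0.872).

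Responses to the inhibitor were unequal at high and medium MYC, by the test of the difference (high minus medium MYC, log2), for SCD (0.72), FASN (0.44), ACACA (0.41), FADS2 (0.23) and ELOVL5 (0.21). Among the other genes reported it differed for SREBF1 (0.36), RXRA (0.90), USF1 (-0.34), MID1IP1 (0.18), ME2 (0.19), MSMO1 (0.54), CYP51A1 (0.52), MVD (0.32) and HMGCS1 (0.30). DESeq2 ended the call of the difference for MID1IP1 (adjusted p = 0.117) and ME2 (0.166). The MID1IP1 call was also lost with no filter (0.0659), with no mean trend (0.0681), and without high MYC control replicate 2 or 3, high MYC inhibitor replicate 3 or 4, medium MYC control replicate 1 or 4, or medium MYC inhibitor replicate 1 or 2 (adjusted p from 0.0538 to 0.0721).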

How the results depend on the processing

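The 9 tested genes were refitted in 5 comparisons under 13 other settings and without each library, 1003 values in all: 969 kept direction and call, 9 gained a call, 1 lost it (the ELOVL5 difference, DESeq2), and 24 changed sign. The sign changes were all of values that had not passed the test. The ACSS2 difference of -0.01 became 0.0562 with a pseudocount of 10, 0.0318 with quantile normalization, 0.0946 with edgeR and 0.0795 with DESeq2, and lay between -0.16 and 0.0841 when a library was left out. The change of ELOVL5 with MYC level in controls became 0.0076 with quantile normalization, 0.0046 with edgeR, and 0.0284 with the GC correction and with the GC correction and replicate block, and ran from -0.0261 to 0.0106 without single libraries. That of FADS2 became 0.0542 with quantile normalization and 0.0021 with edgeR (-0.0215 to 0.0082 without single libraries). ACACA at high MYC ran from -0.0061 to 0.0212 without single libraries. SCD5 ran from -0.24 to 0.0508 at high MYC without single libraries, and became 0.10 with edgeR and 0.10 with DESeq2 at medium MYC. The gains were in the difference for FADS1 (quantile normalization, edgeR, both GC corrections, without medium MYC inhibitor replicate 2), ACLY (quantile normalization, GC correction) and ELOVL6, and in FADS2 with MYC level in controls (GC correction, -0.05). DESeq2 also ended the calls at medium MYC of USF1 (adjusted p = 0.0644) and ETFB (0.100), and fitting the compared groups alone that of RXRA at high MYC (0.0608). The genes of the group called in the difference numbered 4 with DESeq2, 7 with quantile normalization and 5 or 6 without single libraries. Over all genes, DESeq2 called 2249 in place of 3618 at medium MYC and 677 in place of 1188 in the difference; the cause was not tested. Samples with the same replicate number did not deviate together (mean r from -0.07 to 0.02), and with the replicate block 7, 9, 5, 7 and 9 of the genes were called in the 5 comparisons, as without it, beside 3496 in place of 3689 of all genes at high MYC. Depth limits ACSS2, whose intervals are the widest of the 9, and THRSP.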
